A study of Mus musculus with 8 samples.

Results

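Serpins are proteins that share a single fold, and most of them trap serine or cysteine proteases by offering an exposed loop as bait. The members described here were 8 serpin genes: Serpina3i, Serpina3n, Serpina3g, Serpine2, Serpinf1, Serping1, Serpinh1 and Serpini1. They were taken by symbol from the 22609 gene rows of each library, which held 63 serpin rows in all. The list was selected with the values of these libraries known, and Serpina3i was chosen by its difference between females and males, so differences of the members between sexes are described below and were not tested. The measurements were bulk RNA-seq read counts of sensory neurons from the dorsal root ganglia (DRG) of naïve young adult C57BL/6J mice, with 4 female libraries, all from animals in the estrous phase, and 4 male libraries. In every animal a fluorescent wheat germ agglutinin conjugate was injected into the skin of both hindpaws and the muscle of both thighs, so that neurons reaching those sites carried it back to their cell bodies. Labelled cells of the lumbar ganglia of both sides were then sorted by flow cytometry. No animal was injured or treated otherwise, and the groups differed by sex alone as the labels give them.

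Serpins with a protease target change shape when cut and are destroyed along with it, so the amount of inhibitor made sets how much protease can be held in check. In the DRG and its nerve they have been studied as brakes on thrombin, plasminogen activators, complement and leukocyte proteases. Others of the fold have lost the inhibitory function and act as chaperones or secreted factors. The members span these roles: the Serpina3 genes encode antichymotrypsin-like inhibitors, Serpine2 encodes protease nexin-1, Serpini1 encodes neuroserpin, Serping1 encodes the inhibitor of complement C1, Serpinf1 encodes pigment epithelium-derived factor and Serpinh1 encodes the collagen chaperone Hsp47.

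Each library held between 4800071 and 7329597 reads on genes. Levels are given as counts per 1000000 gene reads (CPM). The sorted cells carried the neuronal markers at 23531 to 32714 summed CPM over 12 genes in every library. Markers of satellite glia and Schwann cells were also high, at 10507 to 13616 summed CPM in females and 4179 to 10126 in males, lowest in male 1. For 11 of the 12 glial markers the female mean was the higher, and all 4 females lay above all 4 males for 3 of them. Female 4 differed from the other females more than any other libraries of one sex differed from each other, with a chi-square per degree of freedom of 30.1 to 44.9 against at most 12.1 elsewhere. Values without female 4 and male 1 are therefore given where they matter.

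The members together made up 1143 to 1419 CPM per library, which was 55.0 to 60.0% of all reads on serpin genes. All 8 passed the filter on low counts. Serpinb6a, an intracellular inhibitor that is no member, held 29.8 to 34.1% of the serpin reads. Of the 55 other serpin rows, 28 had no read in any library, where a count of 0 allows up to 0.41 to 0.62 CPM by library, and 15 more had at most 9 reads in any library. The remaining 12 rows had 10 or more reads in some library.

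Compared per length of exon, the members spanned a wide range. The order of the mean levels, in reads per kilobase of merged exon per 1000000 gene reads, was Serpina3n (196 ± 32.2), Serping1 (99.4 ± 13.0), Serpina3g (87.6 ± 17.1), Serpinf1 (46.6 ± 9.27), Serpine2 (34.6 ± 11.7), Serpini1 (27.6 ± 6.10), Serpinh1 (10.97 ± 3.11) and Serpina3i (6.49 ± 3.44), each with the SD over n = 8. Serpina3n was the highest of all 63 serpin genes on this scale, but with lengths from the longest annotated transcript Serpinb6a was above it, at 330 against 196. Between neighbours in this order, only Serpina3n and Serping1 had ranges over the 8 libraries that did not overlap. Serping1 was above Serpina3g in 6 of 8 libraries and Serpine2 above Serpini1 in 5 of 8, so these neighbours were not separated. The order of the members was the same with those other lengths, and with any single library left out. Within single libraries it held in all 4 females and in male 3. In male 1 alone 6 members stood at another rank, with Serpine2 below Serpina3i, in male 4 it was 4 members and in male 2 it was 2.

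**Figure D1:**
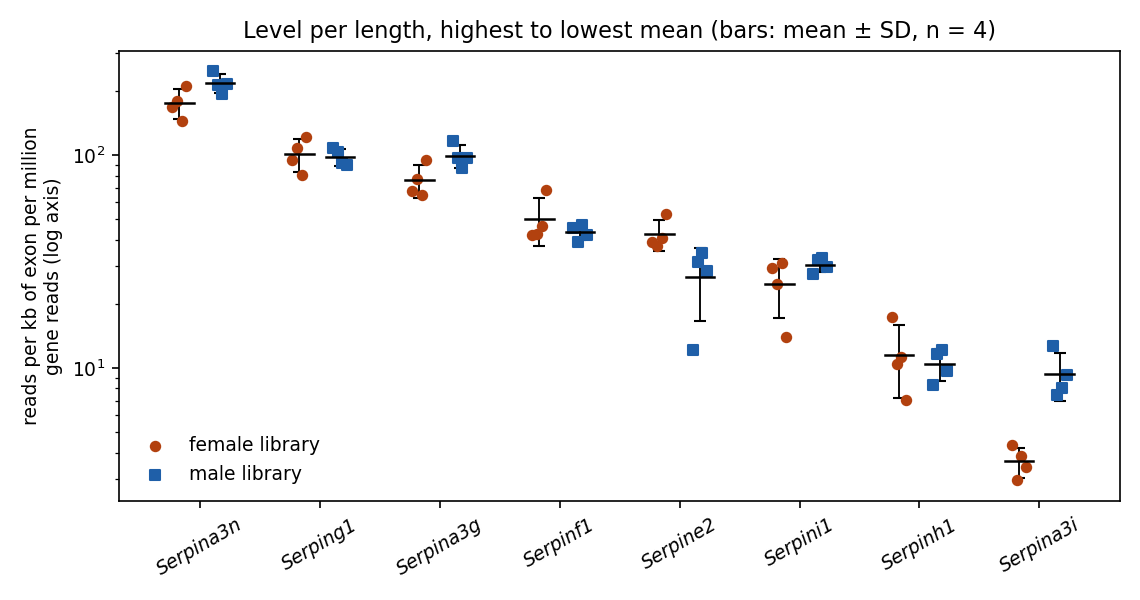
Level of each member per length in reads per kilobase of merged exon per 1000000 gene reads (log axis), ordered by the mean over 8 libraries. Points are libraries, circles for females and squares for males, and bars are the mean ± SD of 4 libraries. Serpina3n stands clear at the top, and Serpina3i is lowest at a mean of 6.49.

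Serpina3i, Serpina3n and Serpina3g lie in the Serpina3 cluster of mouse chromosome 12, where a single human gene corresponds to many mouse copies. In the mm9 build Serpina3g covers chr12:105474455-105480149, Serpina3i chr12:105501332-105507582 and Serpina3n chr12:105644939-105652539, all on the plus strand. Their annotated proteins were 75.7% identical between Serpina3i and Serpina3n over 408 aligned residues, and 79.2% between Serpina3g and either of the others over 216 residues, whereas no other pair of members exceeded 35.9%. The copies were less alike in the reactive-centre loop, which decides the protease that is caught. The copies differed more from the hinge of that loop onward than over their aligned coding sequence, so that stretch of 108 coding bases is shown. It lies in the last exon of each gene (exon 6 of 6 in Serpina3i, exon 5 of 5 in the others) at chr12:105506690-105506797 for Serpina3i, chr12:105651658-105651765 for Serpina3n and chr12:105479282-105479389 for Serpina3g, each read 5′ to 3′ on the plus strand of mm9. Capitals in Serpina3i mark the 11 bases at which it differs from both others, and capitals in Serpina3n and Serpina3g mark the bases that differ from Serpina3i.
Serpina3i: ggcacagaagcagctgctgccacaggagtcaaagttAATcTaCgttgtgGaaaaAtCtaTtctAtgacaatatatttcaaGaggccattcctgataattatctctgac
Serpina3n: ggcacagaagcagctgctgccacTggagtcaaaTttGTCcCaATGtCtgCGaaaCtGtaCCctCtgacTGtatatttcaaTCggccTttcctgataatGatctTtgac
Serpina3g: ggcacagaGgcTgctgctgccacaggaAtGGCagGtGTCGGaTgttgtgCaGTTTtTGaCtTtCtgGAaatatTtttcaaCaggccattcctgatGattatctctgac

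Over this stretch Serpina3n differed from Serpina3i at 24 bases and Serpina3g at 28, so the identity was 77.8% and 74.1%. Over the aligned coding sequence the identity was 85.1% and 86.3%. That alignment covered 1227 bases for Serpina3n but only 651 for Serpina3g, whose annotated protein has 248 residues against 408 in Serpina3i. The likeness limits the counting. Of all 50-base windows of the annotated Serpina3i transcripts, 15.4% also occurred in a transcript of another gene, most often Serpina3h. The share was 14.2% for Serpina3g and 6.90% for Serpina3n, 0.868% for Serpini1 and 0 for the remaining 4 members. Searched in the whole mm9 genome, the share of exon windows that occurred more than once was 19.3% for Serpina3i, 14.9% for Serpina3g, 6.05% for Serpina3n, 4.75% for Serpine2, 1.19% for Serpini1 and 0 for the others. Reads from such windows have no unique place, so the levels of Serpina3i and Serpina3g are the least certain.

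Serpina3i was the rarest member and the one with the largest difference between the sexes. It had 70, 38, 41 and 45 reads in females 1 to 4 and 207, 111, 108 and 139 reads in males 1 to 4. In CPM these were 9.62, 6.59, 8.54 and 7.58 in females and 28.2, 16.5, 17.8 and 20.6 in males. Every male library was above every female library. The means were 8.08 ± 1.3 CPM in females and 20.8 ± 5.25 CPM in males (SD, n = 4 each). The log2 fold change, female minus male, was -1.38 ± 0.21 (SE, from edgeR), or 2.60-fold higher in males. Of all 12518 genes that passed the filter, 2.52% had every male library above every female library. Because Serpina3i was selected on this contrast, nothing is read from its place among them. Without male 1, the library with the highest value, the log2 fold change was -1.18, and without both male 1 and female 4 it was -1.15. In these bulk libraries fewer cells that express a gene and less RNA per cell cannot be told apart. Serpina3h, the copy that shares most windows with Serpina3i, was at 3.22 ± 0.63 CPM in females and 3.21 ± 0.94 CPM in males (SD, n = 4 each).

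**Figure D2:**
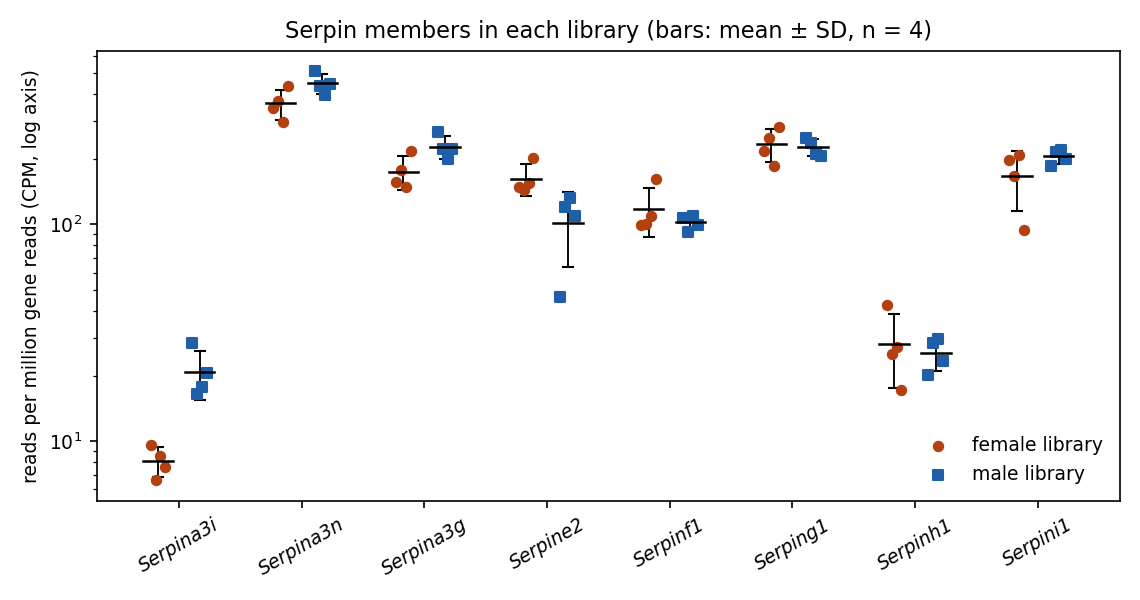
Reads per 1000000 gene reads (CPM, log axis) of the 8 members in each library. Circles are females, squares are males, and bars are the mean ± SD of 4 libraries. Serpina3i lies at 6.59 to 9.62 in females and 16.5 to 28.2 in males, and Serpine2 shows the opposite order with male 1 lowest at 46.3.

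Serpina3n is a secreted inhibitor of granzyme B and leukocyte elastase that is known to be induced in DRG neurons by nerve injury, and here it was the most abundant member in uninjured animals. Its levels were 347, 370, 298 and 436 CPM in females 1 to 4 and 510, 438, 398 and 446 CPM in males 1 to 4. The sexes overlapped through female 4, which lay above male 3. Serpina3n was 1.25-fold higher in males by the fit, at a log2 fold change of -0.33 ± 0.13 (SE). Serpina3g, which encodes an inhibitor of cathepsins inside the cell, was at 157, 178, 149 and 219 CPM in females and 267, 222, 201 and 223 CPM in males. It showed the same overlap of female 4 with male 3, and its log2 fold change was -0.40 ± 0.14 (SE). When female 4 was left out, and likewise when male 3 was, both genes lay higher in every male library than in every female library, and the number of members whose sexes did not overlap went from 2 to 4. Over all genes that passed the filter the share whose sexes did not overlap also went up, from 5.52% with all libraries to 11.8% without female 4 and 9.16% without male 3, so nothing is read from that rise.

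Serpina3n and Serpina3g kept a nearly constant proportion. Serpina3g had 45.2 to 52.4 reads for every 100 reads of Serpina3n, with a mean of 49.6 ± 2.13 (SD, n = 8), and the sexes overlapped. Over the 8 libraries their log2(CPM + 1) values correlated with r = 0.98, and with r = 0.97 after the mean of each sex was subtracted. By the latter value Serpina3g ranked 20 among 9073 genes for Serpina3n, so this likeness was not particular to the pair. Serpina3i did not follow them so closely. It had 1.74 to 2.87 reads per 100 reads of Serpina3n in females and 3.76 to 5.53 in males, and these ranges did not overlap. Because Serpina3i was selected on its difference between the sexes, nothing is read from this gap. Its correlation with Serpina3n was r = 0.69 over all libraries and r = 0.19 after the mean of each sex was subtracted. These correlations describe 8 libraries that also share depth and cell composition, and with 38 to 207 reads the counting error of Serpina3i is the larger. With Serpine2 the correlation of Serpina3i was r = -0.82, and r = -0.78 after the mean of each sex was subtracted, although male 1 is extreme in both genes. Male 1, the library with the most Serpina3i, had the lowest sum of satellite glia and Schwann cell markers, at 4179 CPM against 7704 to 10126 CPM in the other males, and the part of that in the level of Serpina3i was not tested.

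**Figure D3:**
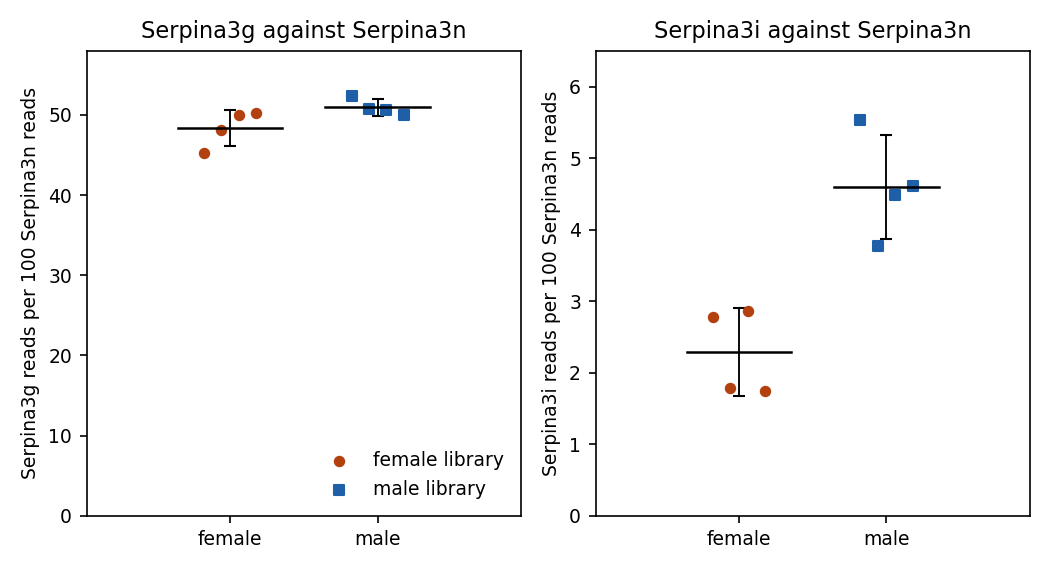
Reads of Serpina3g (left) and Serpina3i (right) per 100 reads of Serpina3n in each library, with circles for females, squares for males, and bars for the mean ± SD of 4 libraries. Serpina3g stays between 45.2 and 52.4 in all libraries, whereas Serpina3i is at 1.74 to 2.87 in females and 3.76 to 5.53 in males. Serpina3i was selected on its difference between the sexes.

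The sequence around the start of the genes was also compared within the cluster, because Serpina3 genes are known targets of cytokine signalling through STAT factors. Promoter sequence of 300 bases, from RefSeq (GRCm38.p6), was found for 7 of the 8 members, all but Serping1. The palindromic motif TTCNNNGAA, searched on both strands, was present in 2 of them, Serpina3i and Serpina3g, against 8.30% of 32851 promoters of the same length. The 60 bases around the match in Serpina3i and the aligned stretches of the other copies are shown because Serpina3g shares the motif there and Serpina3n does not. They lie on the plus strand at chr12:104263000-104263059 for Serpina3i, chr12:104406565-104406624 for Serpina3n and chr12:104236094-104236153 for Serpina3g (GRCm38.p6), with the motif in capitals.
Serpina3i: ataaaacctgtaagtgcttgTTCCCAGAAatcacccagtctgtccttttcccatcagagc
Serpina3n: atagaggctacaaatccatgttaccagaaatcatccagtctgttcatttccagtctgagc
Serpina3g: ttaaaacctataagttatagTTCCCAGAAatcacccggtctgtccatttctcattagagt

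The match began 102 bases before the start site of the table in Serpina3i and 33 bases before it in Serpina3g. In Serpina3n, the most abundant of these genes, no match was in the window. A match is a description of the letters and shows no binding. The motifs TATAAA and TTGCNNAA, also searched on both strands, were in none of the 7 promoters and in 13.6% and 10.8% of all promoters.

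Serpine2 encodes protease nexin-1, an inhibitor of thrombin and plasminogen activators, and it was the member with the largest difference in the other direction. Its levels were 149, 144, 155 and 203 CPM in females 1 to 4 and 46.3, 121, 132 and 109 CPM in males 1 to 4. Every female library was above every male library, and male 1 was far below the others. The means were 163 ± 27.1 CPM in females and 102 ± 38.4 CPM in males (SD, n = 4 each). In the fit Serpine2 was 1.57-fold higher in females, a log2 fold change of 0.65 ± 0.27 (SE). Of all genes that passed the filter, 3.0% had every female library above every male library. Without male 1 the log2 fold change was 0.42, and without both male 1 and female 4 it was 0.30.

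The level of Serpine2 moved with the glial markers from library to library. Both were lowest in male 1 and highest in female 4. For every 1000 CPM of the 12 summed satellite glia and Schwann cell markers, Serpine2 had 13.7 to 14.9 CPM in females and 11.1 to 14.2 CPM in males, and these ranges overlapped. The mean of the marker sum was 1.48-fold higher in females, and the mean of Serpine2 was 1.59-fold higher. Apoe makes up most of that sum. With Apoe left out, Serpine2 had 58.6 to 73.9 CPM per 1000 CPM of the other markers in females and 41.6 to 58.6 CPM in males, which did not overlap by a narrow margin, and the marker sum was 1.32-fold higher in females. The part of glial RNA in the difference of Serpine2 was not tested. Among 9073 genes with a mean above 10 CPM, those whose log2(CPM + 1) followed Serpine2 most closely over the 8 libraries were Apoe (r = 0.99) and Sgce (r = 0.99).

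**Figure D4:**
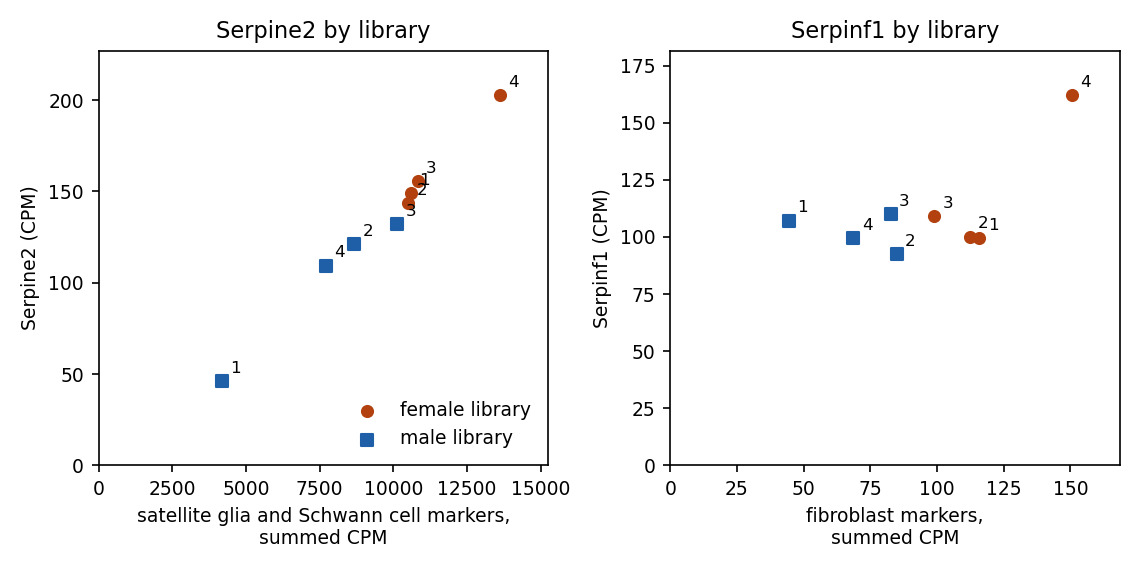
Left, Serpine2 (CPM) against the summed CPM of 12 satellite glia and Schwann cell markers in each library. Right, Serpinf1 (CPM) against the summed CPM of 8 fibroblast markers. Circles are females, squares are males, and numbers are the replicate numbers of the labels. Serpine2 climbs with the glial sum from 46.3 CPM in male 1 to 203 CPM in female 4, whereas Serpinf1 stays between 92.4 and 110 CPM except in female 4.

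Serpini1 encodes neuroserpin, which inhibits tissue plasminogen activator and is made chiefly by neurons. Its levels were 199, 168, 209 and 93.8 CPM in females 1 to 4 and 186, 216, 221 and 201 CPM in males 1 to 4. The males lay close together, and female 4 was far below every other library. For Serpini1 the log2 fold change was -0.32 ± 0.22 (SE), and without female 4 it was -0.12. Female 4 was also the library with the highest sum of neuronal markers. Per 1000 CPM of that sum, Serpini1 had 2.87 CPM in female 4 and 7.12 to 8.37 CPM in the other 7 libraries. Its level was opposed to that of Serpinf1, with r = -0.89 over the 8 libraries and r = -0.87 after the mean of each sex was subtracted, although female 4 is extreme in both.

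Serping1 encodes the inhibitor of C1 and of the contact system, and it was the member with the smallest difference between the sexes. Its levels were 219, 251, 187 and 281 CPM in females 1 to 4 and 252, 239, 212 and 208 CPM in males 1 to 4. All males lay within the range of the females. Its log2 fold change was 0.02 ± 0.14 (SE), and the sign changed in 5 of 16 alternative settings. Serping1 was the second most abundant member per length, and within each sex it followed Serpina3n, with r = 0.92 after the mean of each sex was subtracted and r = 0.60 before.

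Serpinf1 encodes a secreted serpin with neurotrophic and antiangiogenic activity that inhibits no protease. It was at 99.5, 100, 109 and 162 CPM in females 1 to 4 and 107, 92.4, 110 and 99.5 CPM in males 1 to 4. The libraries other than female 4 lay together and female 4 was above them. The log2 fold change was 0.18 ± 0.16 (SE), and without female 4 it was -0.01. The 8 fibroblast markers summed to 99.0 to 150 CPM in females and 44.6 to 84.8 CPM in males, highest in female 4, and all females were above all males for 4 of the 8. Serpinf1 did not have that gap between the sexes.

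Serpinh1 encodes Hsp47, the chaperone that collagen needs to fold in the endoplasmic reticulum, and it was the second rarest member. It was at 42.3, 25.3, 27.3 and 17.2 CPM in females 1 to 4 and 20.2, 28.4, 29.6 and 23.5 CPM in males 1 to 4. The females held both the highest and the lowest value. Its fitted difference was 0.13 ± 0.25 (SE) on the log2 scale, and without female 1 it was -0.14. The fibroblast markers above showed no such order, since the lowest Serpinh1 of all came from female 4, where those markers were highest.

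Read together, 4 members had the higher fitted level in males (Serpina3i, Serpina3n, Serpina3g and Serpini1) and 4 in females (Serpine2, Serpinf1, Serping1 and Serpinh1). Their median log2 fold change was -0.15, beside 0.003 over all genes that passed the filter. In 6 of the 8 members the sexes overlapped and in 2 they did not, beside 5.52% of all genes that did not, and nothing is read from this count since the list was chosen with it known. Only Serpina3i changed by more than 1 on the log2 scale.

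**Figure D5:**
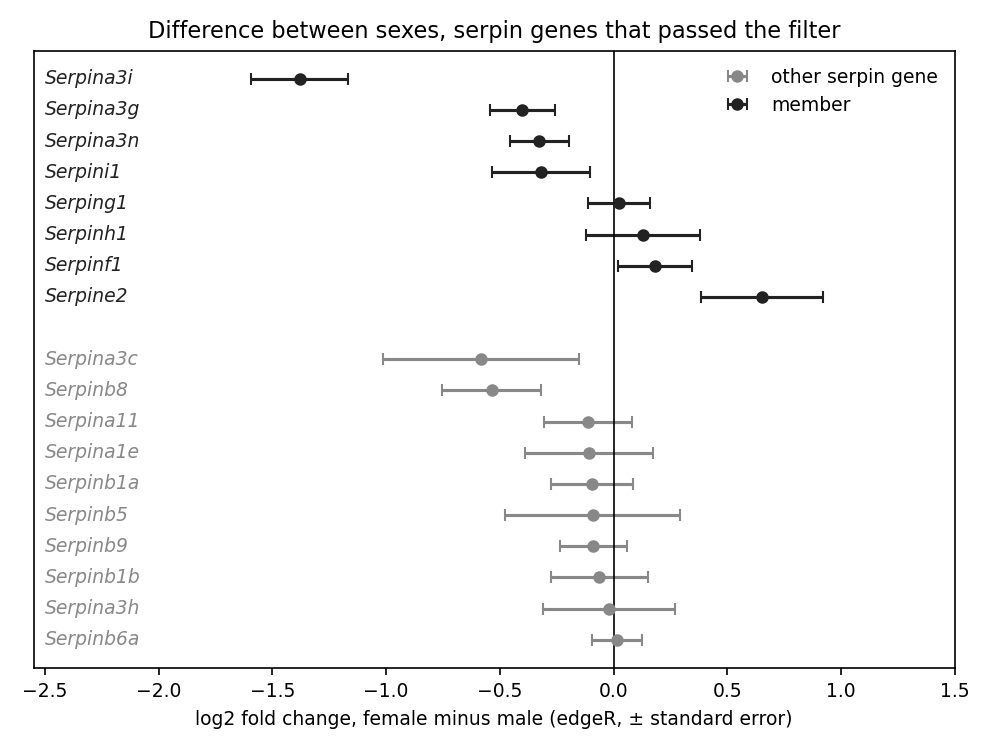
Log2 fold change, female minus male, with its standard error (edgeR) for the 8 members (black) and the 10 other serpin genes that passed the filter (grey). Serpina3i at -1.38 and Serpine2 at 0.65 mark the ends. The other serpin genes have a median of -0.09, and 9 of the 10 lie below 0.

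The 10 other serpin genes that passed the filter were tested between the sexes with edgeR's quasi-likelihood test, adjusted over all 12518 genes by Benjamini-Hochberg. By fitted value 9 of them were higher in males and 1 in females, with a median log2 fold change of -0.09, beside 0.003 over all genes. None passed an adjusted p of 0.05, by edgeR, DESeq2 or limma-voom, a threshold that 0.0879% of all genes passed by edgeR. The same 3 tools gave 0 genes at the adjusted threshold in each of the gene lists described next. At an unadjusted p under 0.05, 1 gene was higher in males and 0 in females, beside 2.67% and 4.44% of all genes, or 890 of 12518 in all. That gene was Serpinb8, an intracellular inhibitor of furin-like proteases, with 17.7 ± 3.93 CPM in females and 25.2 ± 5.51 CPM in males (SD, n = 4 each). In edgeR's quasi-likelihood test the log2 fold change of Serpinb8 was -0.54 ± 0.22 (SE) and the adjusted p = 0.67. Without female 4, without male 1 or without male 4, 0 of the other serpin genes passed the unadjusted threshold. Serpinb8 was at -0.27 on the log2 scale without both female 4 and male 1. Serpinb6a, the most abundant serpin gene by CPM, was at 732 ± 99.7 CPM in females and 714 ± 16.5 CPM in males (SD, n = 4 each). Its log2 fold change was 0.02 ± 0.11 (SE), and its exons overlap those of Nqo2 and Ripk1 on the opposite strand. Serpinb1a, an inhibitor of neutrophil elastase, had a log2 fold change of -0.10 ± 0.18 (SE), Serpinb1b of -0.06 ± 0.21 and Serpinb9, an inhibitor of granzyme B, of -0.09 ± 0.15. Without both female 4 and male 1, Serpinb1a was at -0.35 and was the single other serpin gene past the unadjusted threshold, and Serpinb1b was at -0.24.

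The proteases that the members inhibit and the receptors that clear or respond to them formed a list of 35 genes, of which 17 passed the filter. None passed the adjusted threshold in edgeR's quasi-likelihood test, and at an unadjusted p under 0.05, 2 were higher in females and 2 in males, beside 4.44% and 2.67% of all genes. Vldlr, a receptor that takes up complexes of serpins with their proteases, was at 29.8 ± 3.62 CPM in females and 16.6 ± 5.44 CPM in males (SD, n = 4 each), with all females above all males. By edgeR the log2 fold change of Vldlr was 0.83 ± 0.24 (SE) and the adjusted p = 0.60. Prss12, which encodes the neuronal protease neurotrypsin, was also higher in females, by 0.66 ± 0.28 (SE) on the log2 scale. The urokinase receptor Plaur (-0.78 ± 0.25) and the thrombin-binding receptor Thbd (-0.68 ± 0.24) were higher in males. Without male 1 the number of genes was 2 in place of 4, and over all genes it was 587 of 12607. Prss12 was then at 0.48 and Thbd at -0.48, and without both male 1 and female 4 they were at 0.32 and -0.32. Prss12 also missed the unadjusted threshold without female 3, without female 4 or without male 4. The most abundant genes of the list were the cathepsins Ctsb, at 2739 ± 274 CPM in females and 2589 ± 69.3 CPM in males, and Ctsl, at 1404 ± 240 and 1699 ± 236 CPM (SD, n = 4 each). The third, the thrombin receptor cofactor F2rl2, was at 218 ± 30.9 and 263 ± 34.2 CPM (SD, n = 4 each). Without female 4, Ctsl (-0.41) and F2rl2 (-0.33) also passed the unadjusted threshold.

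For Serping1, 9 of the 25 complement and contact system genes in the files passed the filter. At an unadjusted p under 0.05 the edgeR test gave 1 gene higher in males and 0 in females, beside 2.67% and 4.44% of all genes. None passed the adjusted threshold. The 1 gene was Masp2, a protease of the lectin pathway, at 1.55 ± 0.86 CPM in females and 3.10 ± 0.61 CPM in males (SD, n = 4 each). The count was 0 without female 3, without female 4 or without male 1, beside 681 of 12752, 1453 of 12724 and 587 of 12607 over all genes. It was 2 without female 1 or without male 3, beside 1204 of 12573 and 809 of 12749. Masp2 shares 1817 of its 3307 exon bases with Tardbp on the opposite strand. Whether reads were counted by strand is not given in the sources used here, so its reads and those of Tardbp cannot be told apart. The regulators Cd55 and Cd59a, which protect cells from complement, were the most abundant and had log2 fold changes of -0.06 ± 0.15 and 0.03 ± 0.12 (SE). C4b followed with 0.11 ± 0.43 (SE). Without female 4 these were 0.02, -0.05 and 0.43.

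For Serpinh1, 25 of the 26 genes of collagen folding and processing in the files passed the filter. None passed the adjusted threshold by edgeR. At an unadjusted p under 0.05, 2 were higher in females and 0 in males, beside 4.44% and 2.67% of all genes. Sparc, a collagen-binding matrix protein, was at 546 ± 97.8 CPM in females and 349 ± 116 CPM in males (SD, n = 4 each), and all females were above all males. In the fit Sparc was higher in females by 0.62 ± 0.24 (SE) on the log2 scale. Fkbp10, a prolyl isomerase that works beside Hsp47, had 0.67 ± 0.29 (SE). Fkbp10 kept that threshold in only 2 of the 8 settings that left out a library, without female 2 and without male 2, and Sparc in 7, all but without female 4. The count was 1 without female 3, without male 1 or without male 4, beside 681 of 12752, 587 of 12607 and 620 of 12581 over all genes. Without female 4 the count was 2, but of other genes, Hspa5 and Sec23a, which are named here after their values were seen. Over all genes the number was then 1453 of 12724. Sparc was at 0.50 without female 4, 0.42 without male 1 and 0.29 without both, and Fkbp10 was at 0.44 without male 1. Sparc and Fkbp10 thus lay on the same side as the glial and fibroblast marker sums, whose part in these values was not tested, while Serpinh1 itself was at 0.13 ± 0.25. The abundant chaperones Pdia3 and Canx had log2 fold changes of 0.03 ± 0.11 and -0.26 ± 0.15 (SE), and of -0.05 and -0.14 without female 4.

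For Serpina3n, 24 of 36 genes of cytokine and acute-phase signalling passed the filter. None passed the adjusted threshold by edgeR. At an unadjusted p under 0.05, 1 gene was higher in females and 0 in males, beside 4.44% and 2.67% of all genes. That gene was Cntfr, which encodes the receptor of ciliary neurotrophic factor. It was at 35.6 ± 8.16 CPM in females and 21.6 ± 4.94 CPM in males (SD, n = 4 each), with all females above all males. In edgeR's quasi-likelihood test Cntfr was higher in females by 0.70 ± 0.22 (SE) on the log2 scale, and the adjusted p = 0.64. The count was 4 without female 4, and 2 without female 2 or without female 3, and Cntfr itself passed in all 16 alternatives. Over all genes the number past the same unadjusted threshold also rose without female 4, to 1453 of 12724. It was 921 of 12734 without female 2 and 681 of 12752 without female 3. Lifr, Stat3 and Jak1, which carry signals of the same cytokine family, were the most abundant, with log2 fold changes of -0.30 ± 0.32, -0.30 ± 0.17 and -0.07 ± 0.24 (SE). Without female 4, which was low in Lifr and Jak1, these were -0.02, -0.13 and 0.16. The medians of the log2 fold changes were -0.05 for the protease list, -0.14 for complement, 0.03 for collagen folding and -0.08 for cytokine signalling.

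Of the 16 genes whose patterns were most like those of the members, 5 remained among the nearest 2 after the mean of each sex was subtracted. For Serpina3i the nearest were Usp14 (r = 0.98) and Rab6 (r = 0.96), which ranked 24 and 21 by that second measure. For Serpina3n the nearest was Lgals9 (r = 0.99), a galectin gene that ranked 1 by it, and then Serpina3g, which ranked 20. Serpina3g itself was nearest to Wdr85 and Tspan8, Serpinf1 to Ctsb and Gorasp2, and Serping1 to Prkra and Omp. Serpinh1 was nearest to Cwf19l2 and Plekha2, and Serpini1 to Gpcpd1 and Osbpl9. With 8 libraries and 9073 genes such values are a description of these libraries, which differ in depth and cell composition.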

How the data were processed

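Retrogradely labelled DRG neurons were profiled by SMART-seq2, with oligo-dT priming and PCR amplification. According to the study's methods, the authors aligned single reads with TopHat2 to mm9 and counted them per gene with HTSeq. The strand option and the annotation release are not given in the sources used here. The deposited values are raw read counts per gene, 1 file per library. The 5 HTSeq summary rows were removed. Same-numbered libraries came from different mice.

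CPM was computed from the deposited counts and gene reads of each library. Sexes were compared with edgeR 4.0.16 (TMM factors, filterByExpr, quasi-likelihood test, sex alone, Benjamini-Hochberg over 12518 genes) in R 4.3.3, after a test on simulated counts. DESeq2 1.42.0, limma-voom 3.58.1, other scaling, no filter, thinned counts, a replicate block and leaving out each library were alternatives. Members and gene lists were chosen with earlier results of these data known. Named genes were all members, the 5 most abundant other serpins, the 3 most abundant genes of each list, those with an unadjusted p under 0.05 (at most 5 a list), and the 2 genes most correlated with each member. Gene models came from the GENCODE annotation of mm9, which may differ from the one counted. Counting error alone limits low genes, and PCR copies are not independent molecules, so the limits given for a count of 0 (3 reads) cover counting error only.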

Additional observations from a re-analysis of the deposited data

Results flagged for a closer look

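Of 82 groups of 4 libraries that were examined (members, named genes, marker sums), 11 had a library set apart from the other 3 by Dixon's criterion, where chance flags about 1 in 20 groups. On the log2(CPM + 1) scale, Serpinb8 was low in female 4 (3.68) and Serpinb9 low in female 1 (4.01). Among the males, male 1 was low in Cntfr (3.92) and Prss12 (2.63) and high in Cd55 (9.10). Female 4 was low in Jak1 (7.39) and Lifr (8.39). Female 4 was also high in the summed CPM of the satellite glia and Schwann cell markers (13616), of the T cell and neutrophil markers (53.7, of which Cd3d and Cd3g were at 0 in all libraries) and of the red cell markers (3.71, all from Alas2, since 4 haemoglobin genes were listed at 0). Male 4 was high in the red cell sum among the males, but at 0.44 CPM, the level of 3 reads in that library. No member was set apart by this criterion.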

How the results depend on the processing

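The log2 fold change of Serpina3i ranged from -1.47 to -1.18 when each library was left out, and kept its direction in all 16 alternatives. At an unadjusted p under 0.05, the number of other serpin genes was 1 (0 to 1 with each library left out, 3 with no filter and 0 with a replicate block). The protease list had 4 genes (2 to 5 with each library left out and 6 with no filter). The complement list had 1 (0 to 2 with each library left out, 0 with thinned counts and 2 with the replicate block), and the collagen list 2 (1 to 2 with each library left out, 1 with thinned counts and 3 without both female 4 and male 1, of which 1 was among the original 2). The cytokine list had 1 (1 to 4 with each library left out, 3 with no filter and 2 without both of those libraries, an alternative chosen after seeing the data). Over all genes the number at that threshold was 890, and 587 to 1453 with each library left out. It was 1115 with no filter, 855 with thinned counts, 872 with the replicate block and 1226 without both of those libraries. Members whose sexes did not overlap numbered 2 (2 to 4 with each library left out, 4 without both of those libraries), while the share of all genes that did not overlap was 5.52%, 7.46 to 11.999% and 15.4%. The cause of these changes was not tested. Serpinf1, Serping1 and Serpinh1 changed sign in 1, 5 and 1 of the 16 alternatives, and the other 5 members in 0. The replicate numbers did not pair the libraries, since the deviations of same-numbered libraries correlated at -0.11 to 0.14, and the paired fit is given only for its counts. Over all genes the number at an adjusted p under 0.05 was 11, 48 with DESeq2, 6 with the replicate block and 84 without female 1. Depth limits Serpina3i most, at 38 to 207 reads.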
